A study of Mus musculus with 8 samples.

Results

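Skin of mice labelled as IL-22 receptor knockout (KO) or wild type (WT) was compared after imiquimod (IMQ). There were 2 arrays labelled KO (KO_IMQ and KO_IMQ_B) and 1 labelled WT (WT_IMQ). A gene was counted where both KO arrays lay on the same side of WT_IMQ. This held for 15489 of 22180 genes, of which 8651 were higher (39% of all genes) and 6838 lower (30.8%) on both KO arrays, while 6691 lay on opposite sides or were equal on an array. The array of KO skin given alloferon after IMQ was left out.

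The KO mice are named in the labels as B6.Cg-Il22ra1tm1.1Koll/J males and the WT mice as C57BL/6 males. Dorsal skin was taken after 83.3 mg of 5% IMQ cream had been put on the back and ears daily from day 1 to day 7. A vehicle cream is described as following 6 hours later where alloferon was not given. The arrays used beside them carry no IMQ in their label: KO_CTRL, KO_CTRL-B and WT_CTRL. The study gives 4 mice per group, with 1 array for each label. The sources used here do not give the age of the mice, whether mice were pooled, or what the letter B stands for. Whether the KO allele is deleted in this skin, and in which cells, is not given either. KO and WT below are the labels of the arrays.

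IL-22 is made by lymphocytes and acts on epithelial cells, which carry its receptor, a pair of the chains IL-22RA1 and IL-10RB. Binding activates the kinases JAK1 and TYK2 and the transcription factor STAT3, and in keratinocytes the cytokine is known for inducing antimicrobial proteins, thickening the epidermis and holding back terminal differentiation. IL-22RA1 also pairs with IL-20RB to bind IL-20 and IL-24, so its loss touches more than IL-22. IMQ, an agonist of Toll-like receptor 7, brings on psoriasis-like inflammation in mouse skin through dendritic cells, IL-23 and IL-17.

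The arrays held the signals of inflamed skin. The basal keratin gene Krt14 had levels of 12.59 on KO_IMQ and 12.74 on KO_IMQ_B, against 12.33 on WT_IMQ (levels are log2 values after robust multi-array averaging, RMA). S100a8, which encodes an alarmin of inflamed epidermis and neutrophils, was at 11.92 and 11.52 on the KO arrays with IMQ, against 11.14 on WT_IMQ. Without IMQ it was at 5.27 and 5.74 on the KO arrays, against 5.57 on WT_CTRL. The KO arrays also differed from each other: 203 genes were at least 2-fold (1 log2 unit) apart between KO_IMQ and KO_IMQ_B, against 287 between KO_IMQ and WT_IMQ and 271 between KO_IMQ_B and WT_IMQ. Over all genes the differences had an SD of 0.324 log2 units for KO_IMQ minus WT_IMQ and 0.317 for KO_IMQ_B minus WT_IMQ, and of 0.303 between the KO arrays.

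In limma, with Benjamini-Hochberg adjustment over 22180 genes, 0 genes (0%) passed an adjusted p under 0.05. The adjusted p values started at 0.958, and 1068 genes were under 0.05 before adjustment. The spread in this fit comes from the pairs KO_IMQ and KO_IMQ_B, and KO_CTRL and KO_CTRL-B, so it includes whatever the letter B stands for. The labels do not tie arrays to separate animals, so a p-value here covers only how far these arrays differ, in part perhaps for technical reasons. WT_IMQ is a single array that enters every difference below, so its own deviation from other WT skin moves all of them together. Values with ± are limma's mean difference of the KO arrays minus WT_IMQ and its standard error.

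By size, 45 genes (0.203%) were at least 2-fold higher than WT_IMQ on both KO arrays and 49 (0.221%) at least 2-fold lower. Among these, 8 of the higher and 20 of the lower genes did not exceed the median level of all genes on any of the 3 arrays. Of the lower ones, 12 were olfactory or vomeronasal receptor genes. The filter on dim genes, an alternative described below, kept 12345 of all 22180 genes. It kept 38 of the 45 higher and 29 of the 49 lower genes. The share of receptor genes among all genes was not counted, so their number here shows no excess or deficit. Just inside the 2-fold line, among genes that the naming rule admits, lay Igfbp5, Zfhx4 and Hoxa6, with smaller differences of 1.005, 1.006 and 1.006 in size. Cyp1a1, Elovl3 and AAdacl4fm3 lay just outside it, at 0.997, 0.989 and 0.984.

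**Figure D1:**
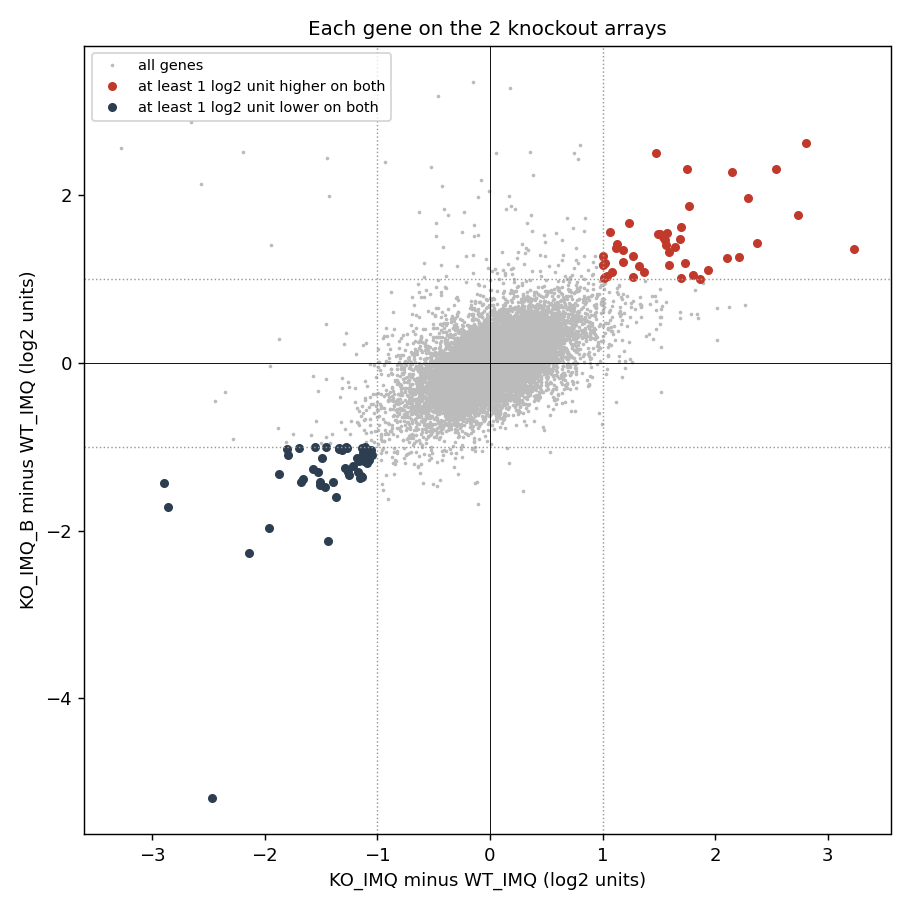
Each point is a gene, with its difference in log2 units on KO_IMQ minus WT_IMQ along the x axis and on KO_IMQ_B minus WT_IMQ along the y axis. The 45 red genes are at least 1 log2 unit higher on both KO arrays and the 49 dark ones at least 1 log2 unit lower; since both axes subtract the same WT_IMQ array, part of the slope is built in.

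The targeted gene came first. Il22ra1 was at 8.88 on KO_IMQ and 8.91 on KO_IMQ_B, against 8.64 on WT_IMQ. On the arrays without IMQ it was at 8.91 and 8.59 on the KO arrays, against 8.23 on WT_CTRL. Its probe set was thus not lower on any of these KO arrays. Where its probes lie relative to any deletion is unknown here, so the values do not show a loss of the gene and do not check the genotype. All directions below rest on the labels. The 40 named genes flanking Il22ra1, 20 on each side, held 17 that were higher and 11 that were lower on both KO arrays, with a median difference of 0.05 log2 units, against 0.02 over all genes. None of the 40 was 2-fold apart on both. The largest by its smaller difference was Myom3, a muscle gene, at 6.98 and 6.57 on the KO arrays, against 5.89 on WT_IMQ.

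Among the ligands of the IL-20 family, Il20 stood higher in KO skin. It was at 6.49 and 6.25 on the KO arrays, against 5.22 on WT_IMQ, a difference of 1.15 ± 0.22 log2 units (limma adjusted p = 0.958). IL-20 is a keratinocyte and myeloid cytokine that signals through IL-20RA or IL-22RA1, each with IL-20RB. Il19, whose product uses only the IL-20RA pair, was at 6.53 on KO_IMQ and 5.27 on KO_IMQ_B, against 4.70 on WT_IMQ, so that the KO arrays differed from each other by more than KO_IMQ_B did from WT_IMQ. Il24 was at 5.29 and 5.30 on the KO arrays, against 5.49 on WT_IMQ. Il22 was dim on all 3 arrays, at 1.81 and 1.81 in KO and 2.31 in WT skin. Without IMQ, Il20 was also higher on both KO arrays, at 5.56 and 5.88, against 5.13 on WT_CTRL.

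The receptor chains other than IL-22RA1 showed no common direction. Il22ra2, which encodes a secreted decoy that binds IL-22, was at 4.69 and 4.60 on the KO arrays, against 3.97 on WT_IMQ. Il20ra was at 4.81 and 5.45, against 5.82 on WT_IMQ. Il10rb was at 8.38 and 8.32 on the KO arrays, against 8.38 on WT_IMQ, and Il20rb at 8.96 and 8.81, against 8.85. For these last genes the 3 arrays differed by less than the KO arrays' spread over all genes.

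Downstream genes lay close together. Stat3, the main transcription factor of the pathway, was at 10.36 and 10.17 on the KO arrays, against 10.03 on WT_IMQ. Socs3, a STAT3 target that feeds back on the receptor, was at 7.41 and 7.08 on the KO arrays, against 6.98 on WT_IMQ, a difference of 0.27 ± 0.26 log2 units (limma adjusted p = 1). Jak1 had levels of 9.93 and 9.83 in KO skin and 9.84 in WT skin, and Tyk2 of 7.90 and 7.72 in KO skin and 7.82 in WT skin. Of the 13 genes of the IL-22 receptor and IL-20 family list, 6 were higher and 4 lower on both KO arrays, shares near those of all genes. The promoter of Socs3 is shown because it is the classical readout of STAT3. It runs from 250 bases before to 50 after the start used, at chr11:117969317-117969616 on the minus strand of GRCm38.p6 (RefSeq). The annotated gene reaches beyond this window, to 117970336, so that start is not its outermost end. The capitals mark the STAT motif TTCNNNGAA.
Socs3: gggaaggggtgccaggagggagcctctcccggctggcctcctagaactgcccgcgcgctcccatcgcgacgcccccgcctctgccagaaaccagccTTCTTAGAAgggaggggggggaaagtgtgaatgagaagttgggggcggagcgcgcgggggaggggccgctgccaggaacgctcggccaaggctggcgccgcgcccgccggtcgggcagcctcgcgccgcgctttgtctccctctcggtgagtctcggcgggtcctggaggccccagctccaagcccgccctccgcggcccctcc
That motif, searched on both strands, was in 9.55% of 27025 RefSeq promoters of the same length. It was in 2 of 10 promoters of the IL-22 receptor and IL-20 family list, in 6 of 38 of the genes at least 2-fold higher and in 4 of 30 of those at least 2-fold lower on both KO arrays. A match is a string of letters and does not show binding.

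Antimicrobial and acute-phase genes were mostly higher in KO skin. Of 18 measured, 11 were higher and 5 lower on both KO arrays, against 39% and 30.8% of all genes, and the median difference was 0.55 log2 units. Lcn2 encodes lipocalin 2, which withholds iron from bacteria. It was at 9.08 on KO_IMQ and 8.14 on KO_IMQ_B, against 6.71 on WT_IMQ, a difference of 1.90 ± 0.41 (limma adjusted p = 0.986). The KO arrays both lay above WT_IMQ, and KO_IMQ above KO_IMQ_B. Beta-defensins, cationic peptides of the epidermis, followed the same order. Defb3 was at 9.84 and 8.95 on the KO arrays, against 7.98 on WT_IMQ. Defb6 was at 10.34 and 10.17, against 9.01 on WT_IMQ. Defb14, the mouse counterpart of human beta-defensin 3, was at 7.61 and 7.20, against 6.44 on WT_IMQ. Further alarmin genes of the list also lay above WT_IMQ. S100a9, the partner of S100a8 in calprotectin, was at 11.67 and 11.08, against 10.48 on WT_IMQ, and the serum amyloid gene Saa3 at 10.93 and 10.29, against 9.64. S100a7a, a psoriasin-family gene outside the list but 2-fold higher on both KO arrays, was at 9.01 and 8.18, against 7.07 on WT_IMQ, a choice made after its values were seen. Without IMQ its KO arrays lay on either side of WT_CTRL, at 6.12 and 8.64, against 8.06. Its WT level was thus lower with IMQ than without.

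The 5 members that were lower were Reg3g, Reg3b, Hp, Camp and Pglyrp1. Reg3g, a C-type lectin gene that IL-22 is known to induce in gut epithelium, was dim on all 3 arrays, at 2.89 on both KO arrays, against 3.69 on WT_IMQ. Its relative Reg3b was at 4.53 and 4.53 in KO skin, against 4.79 in WT skin. Hp, which encodes haptoglobin, was at 9.38 and 9.21 in KO skin, against 9.92 in WT skin, and Camp, the cathelicidin gene, at 3.79 and 4.03, against 4.04. Pglyrp1, which encodes a peptidoglycan recognition protein, was at 5.72 and 5.87 in KO skin, against 5.98 in WT skin. Of these 5 genes, all but Hp lay below the median level of 6.03 on all 3 arrays. Without IMQ, 9 of the 18 antimicrobial genes were higher and 2 lower on both KO arrays, against 31.1% and 27.8% of all genes. Lcn2 was among them, at 6.47 and 6.13 on the KO arrays without IMQ, against 5.51 on WT_CTRL.

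The cornified envelope genes induced by injury had the highest median difference of the 34 lists, 0.85 log2 units. These genes encode small proline-rich and late cornified envelope proteins that are cross-linked into the envelope of wounded or psoriatic epidermis. Of 18 measured, 15 were higher and 1 was lower on both KO arrays. Sprr4 was at 8.83 and 8.96 on the KO arrays, against 6.68 on WT_IMQ, a difference of 2.21 ± 0.29 (limma adjusted p = 0.958). Both KO arrays thus lay close together and away from WT_IMQ. Lce3b was at 7.27 and 6.73 on the KO arrays, against 5.54 on WT_IMQ. Sprr2e was at 10.78 on KO_IMQ and 9.32 on KO_IMQ_B, against 8.65 on WT_IMQ, and Sprr2g at 7.68 and 6.11, against 5.41. For Sprr2e and Sprr2g KO_IMQ lay well above KO_IMQ_B, and the list median was 1.07 log2 units on KO_IMQ and 0.46 on KO_IMQ_B. Sprr2k lay on either side of WT_IMQ, at 6.46 and 5.79 in KO skin and 6.07 in WT skin. Sprr3, the member that was lower, was dim on all 3 arrays, at 3.24 and 3.45 in KO skin and 3.61 in WT skin. Without IMQ 9 members were higher and 6 lower on both KO arrays. Sprr4 was then at 8.85 and 9.47 on the KO arrays, against 8.64 on WT_CTRL, so that WT_IMQ was the lowest of the 6 arrays for this gene.

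The promoter of Sprr2e is shown as an example of the Sprr2 genes, at chr3:92351893-92352192 on the plus strand of GRCm38.p6 (RefSeq). Capitals mark TGANTCA, the letters that AP-1 factors bind.
Sprr2e: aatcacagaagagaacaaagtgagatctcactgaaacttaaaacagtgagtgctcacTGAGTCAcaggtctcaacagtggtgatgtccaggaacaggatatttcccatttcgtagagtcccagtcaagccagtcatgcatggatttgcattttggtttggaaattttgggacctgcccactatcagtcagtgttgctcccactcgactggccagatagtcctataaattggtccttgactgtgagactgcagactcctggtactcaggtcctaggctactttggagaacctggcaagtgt
This motif, searched on both strands, was in 8 of 16 promoters of the cornified envelope list, against 8.97% of all promoters. The list is made of gene families whose members lie side by side, so these 16 promoters are not separate units. It was in 8 of 38 promoters of the genes at least 2-fold higher and 3 of 30 of those at least 2-fold lower on both KO arrays.

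Keratins of hyperproliferative epidermis were all above WT_IMQ, by small steps for most. Krt6a was at 12.59 and 12.64 on the KO arrays, against 12.22 on WT_IMQ, and Krt16 at 11.91 and 11.99, against 11.64. Krt6b was at 12.66 and 12.71, against 12.44 on WT_IMQ. Krt17, the keratin of contracting and stressed keratinocytes, was at 10.37 and 10.43, against 9.53 on WT_IMQ. Of these, Krt17 was the furthest from WT_IMQ. With the letter B as a covariate, the differences of Krt6a, Krt6b and Krt16 turned to -0.05, -0.48 and -0.03 log2 units. Without IMQ, 0 of the 4 were on the same side of WT_CTRL on both KO arrays.

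Protease inhibitors of stressed epidermis leaned the same way, with 8 of 13 stefin and clade B serpin genes higher and 2 lower on both KO arrays. Serpinb3d, of the squamous cell carcinoma antigen family, was at 6.37 and 6.79 on the KO arrays, against 5.13 on WT_IMQ. Csta3, a stefin gene, was at 10.32 on KO_IMQ and 9.35 on KO_IMQ_B, against 8.81 on WT_IMQ. Serpinb2, which encodes an inhibitor of plasminogen activators, was at 9.99 and 9.73, against 9.01 on WT_IMQ. Serpinb12 went the other way, at 8.64 and 9.12 in KO skin, against 9.61 in WT skin.

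Genes of ordinary terminal differentiation did not share that lean. Of 27 measured, 7 were higher and 13 lower on both KO arrays, with a median of -0.15 log2 units. Lor, which encodes loricrin, the most abundant protein of the normal envelope, was at 9.95 and 10.63 on the KO arrays, against 11.06 on WT_IMQ. Flg2, a filaggrin relative, was at 7.79 and 8.32 on the KO arrays, against 8.79 on WT_IMQ, and Hrnr at 10.67 and 11.18, against 11.38. On these genes KO_IMQ lay furthest below WT_IMQ. KO_IMQ_B alone had 14 members above WT_IMQ, and KO_IMQ alone had 20 below. Without IMQ, the same list had 18 members higher and 0 lower on both KO arrays. Loricrin was then at 10.49 and 10.43 in KO skin, against 10.28 in WT skin. The test of the difference between the contrasts with and without IMQ called 0 genes in limma, with every adjusted p at 1 after rounding and 721 genes under 0.05 before adjustment.

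**Figure D2:**
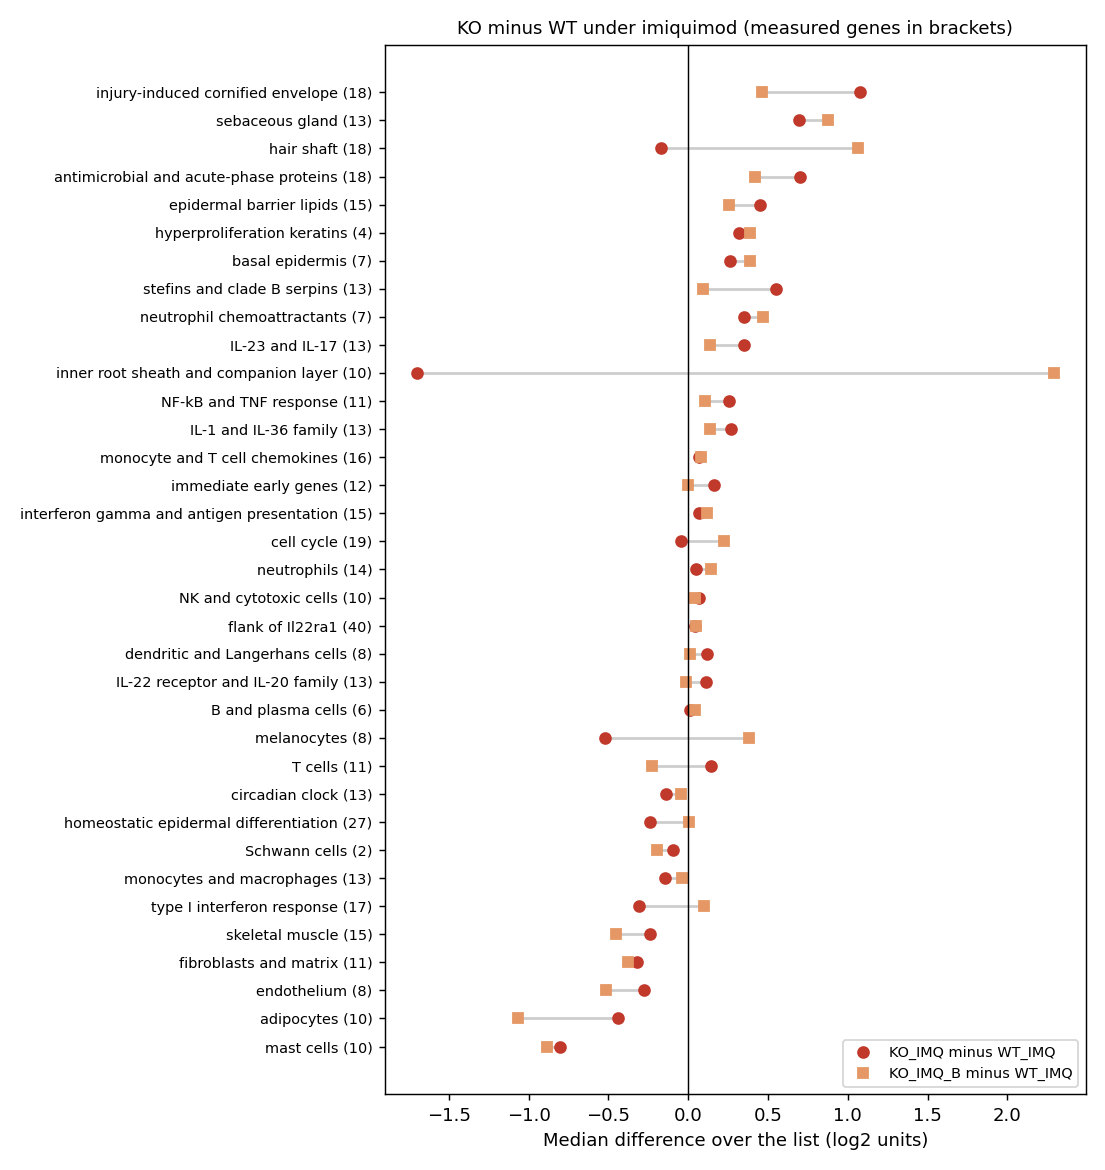
Median difference of each gene list in log2 units, for KO_IMQ minus WT_IMQ (circles) and KO_IMQ_B minus WT_IMQ (squares), joined by a line, with the number of measured genes in brackets. The cornified envelope and sebaceous lists lie right of 0 on both KO arrays and the mast cell and adipocyte lists left of 0 on both, whereas the inner root sheath list is at -1.70 on KO_IMQ and 2.29 on KO_IMQ_B.

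Most genes listed for the lipids of the epidermal barrier and of sebum were higher in KO skin, and Fa2h is in both lists. Of 15 barrier lipid genes, 11 were higher and 2 lower on both KO arrays, with a median of 0.39 log2 units. Nipal4, an ichthyosis gene, was at 9.42 and 9.34 on the KO arrays, against 8.68 on WT_IMQ. Cers3, the ceramide synthase of very long acyl chains, was at 10.42 and 10.23, against 9.82 on WT_IMQ. Both KO arrays were above WT_IMQ for each of these. Aloxe3 and Lipm were the 2 that were lower, and Alox12b and Lipk lay on either side of WT_IMQ. Without IMQ the list was similar, with 12 of the 15 higher and 1 lower on both KO arrays and a median of 0.38 log2 units.

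Of the 13 sebaceous gland genes, 11 were higher on both KO arrays and 1 was lower, with a median of 0.79 log2 units. Sebaceous glands fill hair canals with wax esters and triglycerides. Scd3, the stearoyl-CoA desaturase found in mouse sebocytes, was at 7.87 and 8.43 on the KO arrays, against 6.12 on WT_IMQ, a difference of 2.03 ± 0.28 (limma adjusted p = 0.958). Awat1, a wax ester synthase, was at 8.77 and 8.73, against 7.23 on WT_IMQ. Dgat2l6, of the same acyltransferase family, was at 7.40 and 7.44, against 5.90 on WT_IMQ. For both of these the KO arrays differed by under 0.05 log2 units, the largest difference among the array medians. Elovl3, which elongates fatty acids for sebum, was at 11.10 and 11.34, against 10.11 on WT_IMQ, and the melanocortin receptor gene Mc5r at 7.15 and 7.46, against 6.44. A different number of sebocytes and a different amount of RNA per sebocyte cannot be told apart in whole skin, and the same holds for each cell type below. Awat2 was the member that was lower, at 5.15 and 4.88 in KO skin and 5.19 in WT skin.

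The sebaceous difference was present without IMQ as well. On the arrays without IMQ, 10 of the 13 genes were higher and 0 lower on both KO arrays, against 31.1% and 27.8% of all genes, with list medians of 0.79 on KO_CTRL and 0.23 on KO_CTRL-B. Scd3 was then at 10.60 and 10.38 on the KO arrays, against 9.50 on WT_CTRL, and Awat1 at 9.07 and 8.64, against 7.83. These values share no array with the comparison under IMQ.

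Other lipid enzymes were among the 12 genes furthest higher on both KO arrays. The arylacetamide deacetylase-like genes Aadacl3, Aadacl4 and Aadacl4fm2 encode members of a lipase-related hydrolase family. Aadacl3 was at 9.04 and 9.02 on the KO arrays, against 7.47 on WT_IMQ, a difference of 1.56 ± 0.17 (limma adjusted p = 0.958). Aadacl4 was at 8.90 and 8.94, against 7.41 on WT_IMQ, and Aadacl4fm2 at 8.42 and 8.53, against 6.65. Without IMQ, Aadacl3 was at 8.49 and 8.31 on the KO arrays, against 7.47 on WT_CTRL, so its WT level was the same with and without IMQ. Aadacl4 was at 10.31 and 9.35, against 8.81 on WT_CTRL.

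The genes of that set of 12 not yet described were Serpina3j, Atp12a, Alox8 and Gsdma3, whose cells of origin in whole skin were not tested. Serpina3j, a clade A serpin gene, was at 9.04 and 8.87 on the KO arrays, against 6.24 on WT_IMQ, the largest smaller difference of any gene. Without IMQ it was at 8.84 and 9.76 on the KO arrays, against 8.21 on WT_CTRL. Atp12a, the non-gastric proton and potassium pump, was at 9.55 and 9.32 on the KO arrays, against 7.01 on WT_IMQ, but without IMQ the KO arrays disagreed, at 5.82 and 8.19, against 6.00 on WT_CTRL. Alox8, the 8-lipoxygenase of irritated mouse epidermis, was at 9.37 on KO_IMQ and 8.39 on KO_IMQ_B, against 6.62 on WT_IMQ. Gsdma3, a skin gasdermin gene, was at 6.11 and 6.02, against 4.56 on WT_IMQ. For Alox8 and Gsdma3 the KO arrays without IMQ lay on either side of WT_CTRL.

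**Figure D3:**
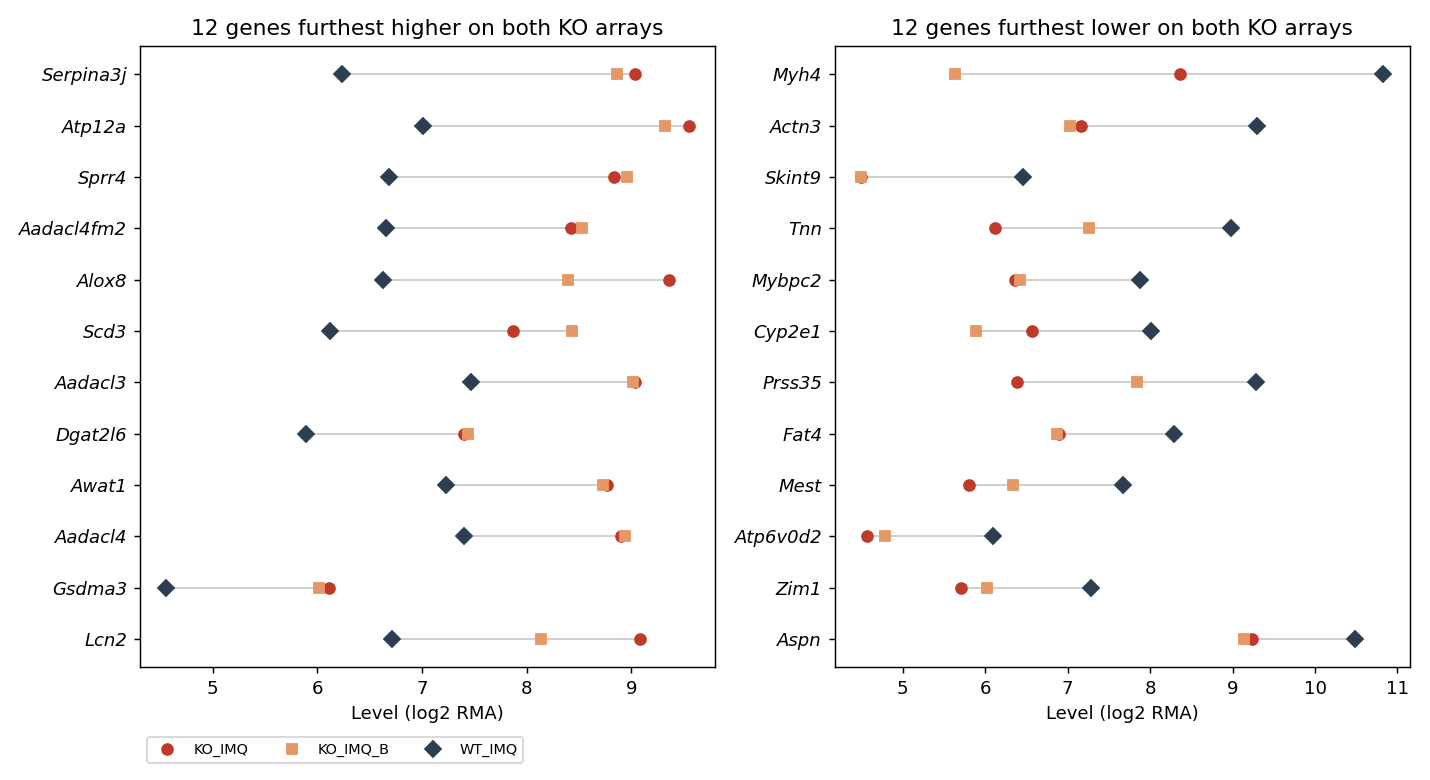
Levels (log2 RMA, x axis) of the 12 genes furthest higher and the 12 furthest lower on both KO arrays, ranked by the smaller of the KO differences, for KO_IMQ (circles), KO_IMQ_B (squares) and WT_IMQ (diamonds). Both KO points lie on the same side of the WT point by choice of the genes, and they lie furthest from each other for Myh4, Prss35 and Tnn, followed by Alox8 and Lcn2.

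Mast cell genes were lower in KO skin after IMQ, all 10 of 10 on both KO arrays, against 30.8% of all genes. The median difference was -0.81 log2 units, at -0.80 on KO_IMQ and -0.88 on KO_IMQ_B. Mast cells are resident granulocytes of the dermis that store proteases and histamine. Cpa3, the mast cell carboxypeptidase, was at 8.46 and 8.47 on the KO arrays, against 9.62 on WT_IMQ, a difference of -1.16 ± 0.47 (limma adjusted p = 1). The chymase genes Cma1 and Mcpt4 belong to connective tissue mast cells. Cma1 was at 6.17 and 6.43, against 7.45 on WT_IMQ, and Mcpt4 at 6.38 and 6.42, against 7.49. Mrgprb1, a receptor gene of the Mas-related family, was at 5.61 and 5.56 on the KO arrays, against 6.73 on WT_IMQ, a difference of -1.15 ± 0.16 (limma adjusted p = 0.958). These 4 genes were at least 2-fold lower on both KO arrays. The tryptase gene Tpsb2 was at 6.26 and 6.29, against 7.25 on WT_IMQ. In each of these genes the KO arrays lay close together and well below WT_IMQ. Kit, the stem cell factor receptor that melanocytes also carry, was at 7.29 and 7.24 in KO skin and 7.48 in WT skin.

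Without IMQ the mast cell genes had no common direction. There 3 of the 10 were higher and 1 was lower on both KO arrays, and the list medians were 0.20 on KO_CTRL and -0.28 on KO_CTRL-B. Cpa3 was at 7.88 and 6.71 on the KO arrays, against 7.09 on WT_CTRL, and Mcpt4 at 5.73 and 5.08, against 5.35. WT_IMQ thus had the highest Cpa3 and Mcpt4 levels of the 6 arrays. The difference between the contrasts was -1.37 for Cpa3 and -0.90 log2 units for Mrgprb1, with 0 genes called in limma.

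The promoter of Cpa3 is shown because all 10 genes of its list were lower on both KO arrays. It lies at chr3:20242132-20242431 on the minus strand of GRCm38.p6 (RefSeq), and the capitals mark AGATAA, a motif of GATA factors.
Cpa3: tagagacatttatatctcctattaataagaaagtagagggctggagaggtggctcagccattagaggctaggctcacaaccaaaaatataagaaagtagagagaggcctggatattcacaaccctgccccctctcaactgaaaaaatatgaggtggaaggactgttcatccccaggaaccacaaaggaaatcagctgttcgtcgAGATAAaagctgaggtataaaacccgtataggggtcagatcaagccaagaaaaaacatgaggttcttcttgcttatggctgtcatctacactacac
On both strands this motif was in 3 of 8 mast cell promoters, against 12.7% of all promoters. It was in 10 of 38 promoters of the genes at least 2-fold higher and 3 of 30 of those at least 2-fold lower, and the STAT motif was in 0 of the 8 mast cell promoters.

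**Figure D4:**
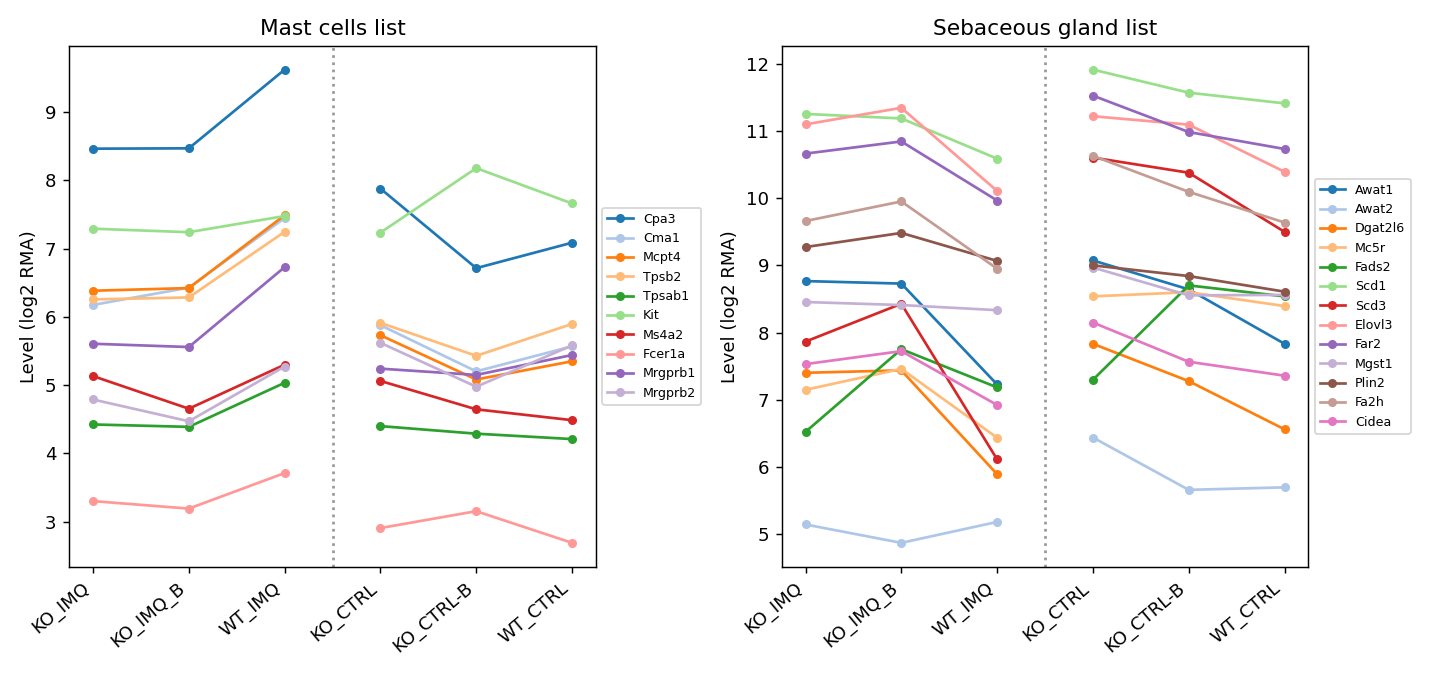
Levels (log2 RMA) of the 10 mast cell genes (left) and the 13 sebaceous gland genes (right) on the arrays with IMQ (KO_IMQ, KO_IMQ_B, WT_IMQ) and without it (KO_CTRL, KO_CTRL-B, WT_CTRL), with a line joining the values of a gene within each treatment. All 10 mast cell genes are lower on both KO arrays with IMQ and 1 of 10 without it, whereas 11 and 10 of the 13 sebaceous genes are higher on both KO arrays with and without IMQ.

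Markers of other dermal and subcutaneous cells moved with the mast cell genes. All 10 adipocyte genes were lower on both KO arrays, with medians of 7.13 and 6.94 in KO skin and 7.73 in WT skin. The fatty acid carrier gene Fabp4 was at 9.26 and 8.90 on the KO arrays, against 10.10 on WT_IMQ, and Retn, which encodes resistin, at 7.00 and 6.67, against 7.84. Of 8 endothelial genes, 7 were lower and 0 higher on both KO arrays, with Emcn at 6.61 and 6.39 in KO skin and 7.13 in WT skin. Both Schwann cell genes measured were lower by small steps, with a median of -0.15 log2 units. Their part in the mast cell result was not tested. Without IMQ, 3 of the 10 adipocyte genes and 3 of the 8 endothelial genes were lower on both KO arrays.

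Matrix genes of fibroblasts were lower as well, 8 of 11 on both KO arrays and 0 higher, with a median of -0.32 log2 units. Col5a1, a fibrillar collagen chain, was at 8.77 and 8.96 on the KO arrays, against 9.76 on WT_IMQ, a difference of -0.90 ± 0.18 (limma adjusted p = 0.958). Postn, which encodes the matrix protein periostin, was at 11.02 and 11.19, against 11.87 on WT_IMQ. The major collagen genes differed less, with Col1a1 at 12.58 and 12.52 in KO skin and 12.78 in WT skin.

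The 12 genes furthest lower on both KO arrays included Tnn, Prss35, Fat4 and Aspn, which are not in that list. Tnn, which encodes the tenascin of developing connective tissue, was at 6.12 on KO_IMQ and 7.26 on KO_IMQ_B, against 8.98 on WT_IMQ. On arrays without IMQ it was at 5.97 and 6.10 on the KO arrays, against 5.65 on WT_CTRL, so that WT_IMQ stood far above the other arrays. Prss35, a serine protease-like gene, had the same shape, at 6.38 and 7.84 in KO skin with IMQ, against 9.28 on WT_IMQ. Its levels without IMQ were 6.38 and 6.14 in KO skin and 6.29 in WT skin. Fat4, an atypical cadherin of planar cell polarity, was at 6.89 and 6.87 on the KO arrays, against 8.29 on WT_IMQ, a difference of -1.41 ± 0.16 (limma adjusted p = 0.958). Without IMQ its levels were 6.74 and 6.83 in KO skin and 6.86 in WT skin. Aspn, a small leucine-rich proteoglycan gene, was at 9.23 and 9.14, against 10.48 on WT_IMQ. Further down the list, the secreted Wnt modulator gene Sfrp2 was at 6.29 and 7.06, against 8.09 on WT_IMQ, and Igfbp5, which encodes a binding protein of insulin-like growth factors, at 8.99 and 9.54, against 10.55 (both chosen after their values were seen). For Tnn, Prss35, Fat4, Aspn and Sfrp2 the WT_IMQ array was the highest of the 6.

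Skint9, of the keratinocyte gene family named for the upkeep of intraepithelial T cells, was at 4.50 and 4.49 on the KO arrays, against 6.46 on WT_IMQ. On the arrays without IMQ it was brighter on all arrays, at 7.84 and 7.01 in KO skin and 7.16 in WT skin. Cyp2e1, a cytochrome P450 gene, was at 6.57 and 5.88 on the KO arrays, against 8.01 on WT_IMQ. Atp6v0d2, a proton pump subunit gene of osteoclasts and macrophages, was at 4.56 and 4.79, against 6.09 on WT_IMQ.

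Skeletal muscle genes were split. Of 15 measured, 9 were lower and 4 higher on both KO arrays, with a median of -0.27 log2 units. The fast-fibre genes Myh4, Actn3 and Mybpc2 were among the 12 furthest lower. Myh4, the myosin of the fastest fibres, was at 8.36 on KO_IMQ and 5.64 on KO_IMQ_B, against 10.83 on WT_IMQ, and Actn3 at 7.16 and 7.03, against 9.30. Mybpc2, which encodes the fast isoform of myosin-binding protein C, was at 6.36 and 6.42, against 7.88 on WT_IMQ. In contrast Myh2, the myosin of fast oxidative fibres, was at 9.16 and 8.31 in KO skin, against 7.06 in WT skin. Without IMQ the KO arrays lay far apart for Myh4, at 12.88 on KO_CTRL and 9.43 on KO_CTRL-B, against 12.60 on WT_CTRL. Muscle lies under the skin sampled here, and its share of a sample was not tested.

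The KO arrays differed from each other in hair follicle genes. The inner root sheath list had medians of 5.12 on KO_IMQ and 8.84 on KO_IMQ_B, with WT_IMQ between them at 7.19. Krt71, a keratin of the inner root sheath, was at 4.59 and 10.44 on the KO arrays, against 7.87 on WT_IMQ, and Tchh, which encodes trichohyalin, at 5.04 and 10.57, against 7.69. The hair shaft list had 7 of 18 genes higher and 0 lower on both KO arrays, with medians of -0.17 on KO_IMQ and 1.06 log2 units on KO_IMQ_B. Among melanocyte genes, the pigment enzyme gene Tyrp1 was at 6.75 and 8.12 in KO skin and 7.43 in WT skin, and 1 of 8 was higher and 0 lower on both. For the 7 hair shaft genes and for Krt72, Krt75 and Gata3 of the inner root sheath list, WT_IMQ lay below both KO arrays. The part of hair follicle genes in the other results was not tested.

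Genes of the basal epidermal layer were mostly higher by small steps in KO skin, with 5 of 7 higher and 2 lower on both KO arrays. Trp63, which encodes the transcription factor p63, was at 9.59 and 9.58 on the KO arrays, against 9.10 on WT_IMQ, and Itgb4, a hemidesmosome integrin gene, at 8.53 and 8.59, against 8.09. Krt15, a keratin of resting basal and bulge cells, was lower at 8.66 and 9.01, against 9.37 on WT_IMQ. Proliferation genes did not separate the KO arrays from WT_IMQ: 6 of 19 were higher and 1 lower on both KO arrays. Mki67 was at 9.91 and 10.13 in KO skin and 9.88 in WT skin. Without IMQ, 14 of the 19 were lower and 0 higher on both KO arrays, against 27.8% and 31.1% of all genes.

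Genes of the cytokine axis that drives the IMQ response had small differences. For IL-23, IL-17 and their receptors, 8 of 13 genes were higher and 0 lower on both KO arrays, with a median of 0.24 log2 units, while KO_IMQ alone had all 13 above WT_IMQ and KO_IMQ_B alone had 5 below. Il23a, the subunit particular to IL-23, was at 4.90 and 4.69 on the KO arrays, against 4.55 on WT_IMQ. Il17a was at 4.81 and 4.11, against 4.22 on WT_IMQ, and Il17f at 6.53 and 5.75, against 6.37, so that the KO arrays lay on either side of WT_IMQ for both. Il17re, which encodes a receptor chain for IL-17C on epithelium, was at 6.90 and 6.86, against 6.36 on WT_IMQ. Il6 was at 3.60 on KO_IMQ and 4.68 on KO_IMQ_B, against 3.35 on WT_IMQ.

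IL-1 and IL-36 cytokine genes were also close. Of 13 measured, 7 were higher and 2 lower on both KO arrays. IL-36 alpha, annotated as Il1f6, was at 10.29 and 10.21 on the KO arrays, against 10.51 on WT_IMQ. IL-36 gamma, annotated as Il1f9, was at 10.51 and 10.11, against 10.03 on WT_IMQ. Il33, an alarmin of keratinocyte nuclei, was at 9.39 and 9.40, against 8.68 on WT_IMQ. Il1b was at 7.89 and 8.68 in KO skin and 8.54 in WT skin.

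Chemokine and leukocyte lists were mixed. Of 7 neutrophil chemoattractant genes, 4 were higher and 2 lower on both KO arrays, with Cxcl1 at 5.71 and 6.00 in KO skin, against 5.34 in WT skin. Of 16 monocyte and T cell chemokine genes, 8 were higher and 2 lower, with Cxcl16 at 9.36 and 8.73, against 8.44 on WT_IMQ. Neutrophil genes had 7 of 14 higher and 2 lower, and the chemokine receptor gene Cxcr2 was at 8.69 and 8.39, against 8.08 on WT_IMQ. The neutrophil marker gene Ly6g itself was dim, at 3.15 and 3.27 in KO skin and 3.48 in WT skin.

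Macrophage genes had 3 of 13 higher and 6 lower on both KO arrays. Adgre1, a macrophage surface receptor gene, was at 9.56 and 9.25 in KO skin and 9.80 in WT skin, whereas Ccr2, the receptor of recruited monocytes, was at 7.89 and 8.17, against 7.27 on WT_IMQ. T cell genes had 2 of 11 higher and 3 lower, and Cd3e was at 7.42 and 6.44 in KO skin and 6.82 in WT skin. NK and cytotoxic genes had 5 of 10 higher and 1 lower, B and plasma cell genes 3 of 6 higher and 2 lower, and dendritic and Langerhans cell genes 4 of 8 higher and 2 lower. Over the NK, B and plasma cell, and dendritic lists the largest median was 0.05 log2 units in size, against -0.16 for the macrophage list. Cd207, the langerin gene, was at 6.31 and 6.21 in KO skin and 6.20 in WT skin.

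Interferon genes showed no shared shift under IMQ. Of 17 type I interferon response genes, 3 were higher and 6 lower on both KO arrays, and KO_IMQ_B alone had 11 above WT_IMQ while KO_IMQ alone had 14 below. Of 15 interferon gamma and antigen presentation genes, 8 were higher and 5 lower. The MHC class II gene H2-Ab1 was at 9.16 and 8.91 in KO skin, against 8.61 in WT skin, and the guanylate-binding protein gene Gbp4 was lower, at 4.54 and 5.08, against 5.67 on WT_IMQ. Without IMQ, 11 of the 17 type I genes were higher and 2 lower on both KO arrays, against 31.1% and 27.8% of all genes. The interferon gamma list then had 10 of 15 higher and 1 lower. Under IMQ, NF-kB and TNF response genes had 7 of 11 higher and 1 lower. Ier3, a stress-induced early response gene, was at 9.10 and 9.29 in KO skin, against 8.79 on WT_IMQ, and Nfkbiz, an IL-17 and IL-36 target, at 8.75 and 8.29, against 8.10. Immediate early genes had 6 of 12 higher and 4 lower, and circadian clock genes 3 of 13 higher and 6 lower.

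The genes at least 2-fold apart under IMQ were then read on the arrays without IMQ, which the choice had not used. Of the 45 higher genes, 22 were higher and 5 lower on both KO arrays without IMQ, against 31.1% and 27.8% of all genes. Of the 49 lower genes, 23 were lower and 3 higher. Of either set, 0 were 2-fold apart in the same direction on both KO arrays without IMQ. In limma 0 genes passed without IMQ, with every adjusted p at 1 after rounding and 690 genes under 0.05 before adjustment. Over the 22180 genes, whose values are not independent of each other, the mean differences with and without IMQ had a Pearson r of 0.07, as a description. WT_IMQ was the lowest of the 6 arrays in 32 of the 45 higher genes (71.1%, against 18.9% of all genes) and the highest in 43 of the 49 lower genes (87.8%, against 14.2%). The choice of these genes favours that, since it used WT_IMQ.

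The genes lower on both KO arrays held a run of imprinted transcripts, a group chosen after its values were seen, so it is described without a test. The Dlk1 to Dio3 region of chromosome 12 is expressed from the parental copies unequally. Its maternally expressed RNAs Meg3 and Rian lie among many small nucleolar RNA and microRNA genes, known to be active in embryos and in growing tissue. Chromosome 12 held 11 of the 94 genes at least 2-fold apart, and 3.4% of all genes. Of these 11, 8 lay in this region and were lower on both KO arrays. Outside it, Dact1 was lower, whereas Serpina3j and Serpina3b were higher. Chromosome 3 also held 11 of the 94, and 4.78% of all genes. Of 54 transcripts measured from Dlk1 to Dio3, 43 were lower and 6 higher on both KO arrays, against 30.8% and 39% of all genes. Some of these transcripts overlap, so they are not 54 separate units. The median difference was -0.35 log2 units on KO_IMQ and -0.42 on KO_IMQ_B. Without IMQ 26 were lower and 10 higher on both KO arrays, with a median of -0.05. Many of these probe sets are dim, with medians of 4.93 on KO_IMQ and 5.10 on KO_IMQ_B, against 5.50 on WT_IMQ.

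Rian was at 7.13 and 7.18 on the KO arrays, against 8.31 on WT_IMQ, and Meg3 at 5.58 and 5.52, against 6.15. Without IMQ, Rian was at 7.60 and 7.43 in KO skin and 7.70 in WT skin. The small nucleolar RNA genes AF357425, AF357426 and AF357355 were at least 2-fold lower on both KO arrays. They lie within the span of Rian, so their values need not be independent of it. AF357425 was at 7.58 and 7.62, against 8.87 on WT_IMQ. Dlk1 and Dio3 are the protein-coding ends of the region. Dlk1 lay on either side of WT_IMQ, at 5.35 and 5.07 in KO skin and 5.28 in WT skin. Dio3 was among the 43 lower transcripts by a small step, at 4.16 and 4.33 in KO skin and 4.39 in WT skin.

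Of the microRNA genes, Mir493, Mir380, Mir300 and Mir377 were at least 2-fold lower on both KO arrays. Mir493 was at 5.26 and 5.63, against 6.75 on WT_IMQ, and Mir377 at 3.70 and 3.68, against 4.92. Mir300 was at 4.32 and 4.19, against 5.50 on WT_IMQ, and Mir380 at 3.75 and 3.54, against 4.91. Probe sets for these genes can read the precursor or its host RNA and need not measure the mature microRNA. Their mature sequences (RefSeq, GRCm38.p6, plus strand of chromosome 12) are shown to let the seeds be compared, with the seed, bases 2 to 8, in capitals.
miR-493-5p: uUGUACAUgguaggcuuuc
miR-493-3p: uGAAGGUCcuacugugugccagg
miR-380-5p: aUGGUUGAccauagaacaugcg
miR-380-3p: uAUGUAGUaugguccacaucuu
miR-300-5p: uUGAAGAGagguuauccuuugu
miR-300-3p: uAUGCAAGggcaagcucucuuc
miR-377-5p: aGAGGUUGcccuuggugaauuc
miR-377-3p: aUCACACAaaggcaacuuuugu
No seed occurs in more than 1 of these 8 arms. Mir337 and Mir409 lay on the other side, at 4.82 and 4.51 in KO skin, against 3.80 in WT skin for Mir337, and at 5.91 and 5.57, against 4.97, for Mir409.

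**Figure D5:**
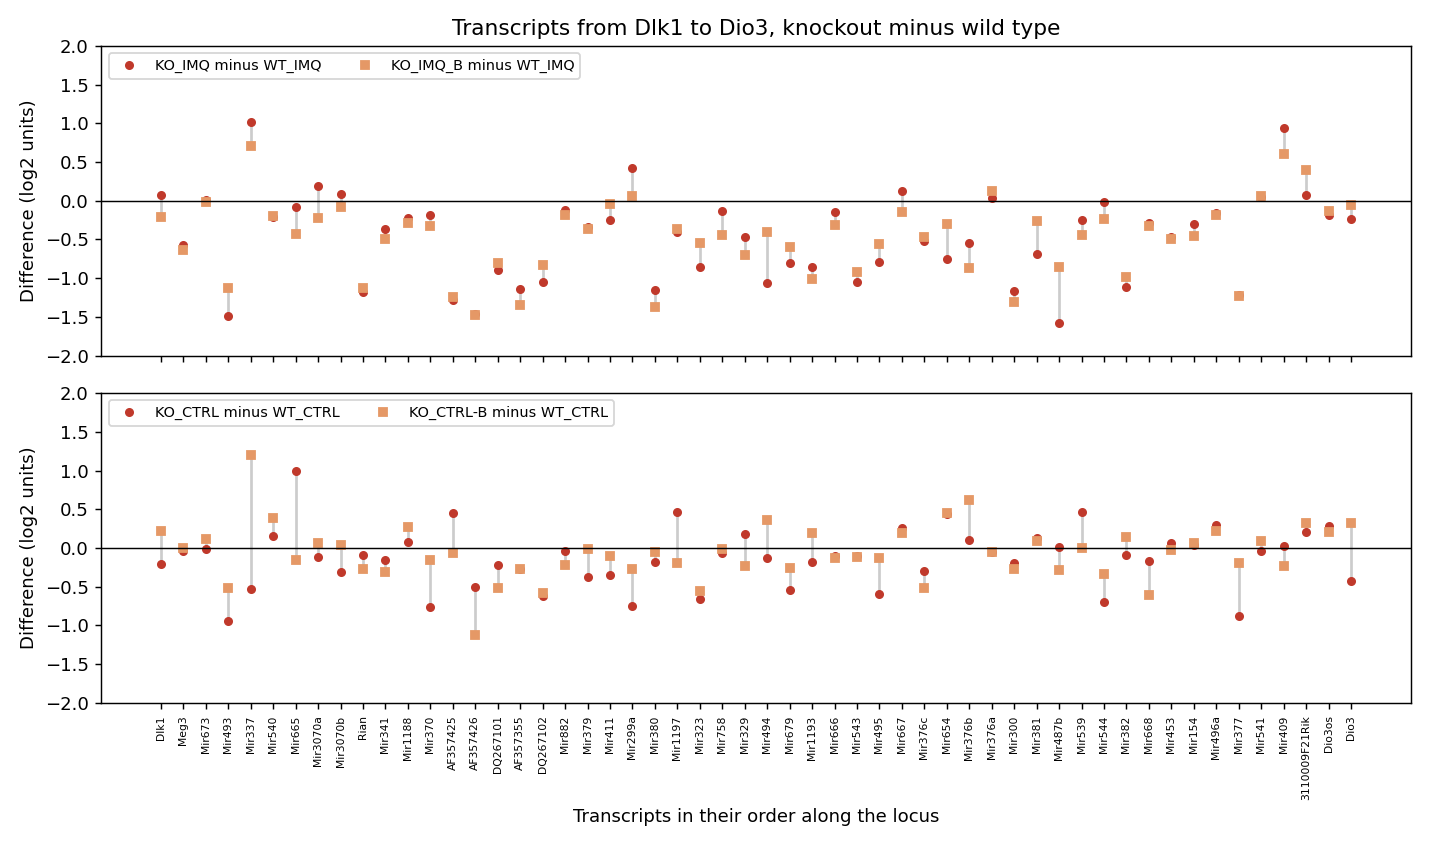
Difference in log2 units for each of 54 transcripts in their order from Dlk1 to Dio3, KO minus WT, with IMQ (upper panel, minus WT_IMQ) and without it (lower panel, minus WT_CTRL), for the plain (circles) and B (squares) KO arrays. With IMQ 43 transcripts lie below 0 on both KO arrays, and without IMQ 26 do.

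Imprinted genes on other chromosomes leaned the same way under IMQ. Of 22 measured, 15 were lower and 3 higher on both KO arrays, with a median of -0.19 log2 units, again chosen after values were seen. Mest, a hydrolase gene expressed from the paternal copy, was at 5.80 and 6.34 on the KO arrays, against 7.67 on WT_IMQ, a difference of -1.60 ± 0.26 (limma adjusted p = 0.958). Its levels without IMQ were 6.01 and 6.11 in KO skin and 6.10 in WT skin. Zim1, an imprinted zinc finger gene beside Peg3, was at 5.71 and 6.02, against 7.28 on WT_IMQ, and Peg3 at 7.65 and 7.84, against 8.55. Plagl1, a growth-regulating zinc finger gene, was at 6.21 and 6.12, against 6.86 on WT_IMQ. Without IMQ 8 of the 22 were lower and 5 higher on both KO arrays. Zim1 was at 6.71 and 7.18 in KO skin without IMQ and at 7.49 in WT skin. WT_IMQ was thus the highest of the 6 arrays for Mest, and WT_CTRL for Zim1.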

How the data were processed

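The levels are log2 expression values for 41345 probe sets on 8 arrays, as deposited by the authors. Per the submitters' processing notes, RMA (robust multi-array averaging) and Affymetrix Power Tools were used, and R 3.3.2 is listed with no role. RMA puts all arrays on 1 distribution, so array medians differed by at most 0.05, and it compresses dim and very bright genes. The sources used here name no batch. No counts or depth exist, and the number of arrays limits the precision. No array pair held identical values.

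Gene names come from the platform annotation: 23521 had 1 gene symbol, 1814 several and 16010 none. Entrez identifiers of 23328 matched RefSeq GRCm38.p6, and 0 symbols changed. Genes with several probe sets (1082) were each taken from their brightest probe set on average, which left 22180 genes, with no filter on dim ones.

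limma 3.58.1 in R 4.3.3 was fitted to the 6 arrays without alloferon, with a mean per genotype and IMQ status, 2 residual degrees of freedom and 3.08 prior ones, and Benjamini-Hochberg adjustment over all genes. It was tested on simulated data. The contrasts were KO minus WT with IMQ, without IMQ, and their difference. The gene lists and other members were chosen with earlier results of these data known, so no pattern shown before is independent support.

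Named genes are the first 12 higher and 12 lower by the smaller of the KO differences, among genes above the median level on at least 1 array, with clone-type, predicted, olfactory, microRNA, small nucleolar and receptor-segment symbols left out. All members of the IL-22 list and up to 4 members per list were added, and further list members and genes were chosen after their values were seen. Alternatives were other normalizations, a mean over probe sets, a filter on dim genes, another prior, the letter B as covariate, only the 3 arrays, KO_IMQ_Allo added, each KO array left out, and other folds. The KO_Allo array was not used.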

Additional observations from a re-analysis of the deposited data

How the results depend on the processing

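The calls in limma stayed at 0 under all 12 alternatives for KO against WT with IMQ, where the smallest adjusted p was 0.653, with the letter B as a covariate, so these give no sign of stability in either direction. The counts of genes at least 2-fold apart depend on the fold: 271 were higher and 232 lower at 1.5-fold, and 8 and 4 at 3-fold. Without dim genes 29 were lower instead of 49, and 38 higher instead of 45. Leaving out a KO array, the single remaining KO array gave 151 to 158 higher and 120 to 129 lower, since 1 array then decides. With KO_IMQ_Allo as a further KO array that also had to agree, 32 were higher and 36 lower. Subtracting medians (41 and 50), quantile normalization (40 and 49) and the mean of probe sets (45 and 45) moved the counts by less than 1.5 times. Of 1844 values of 156 named genes under alternatives, 1825 kept their direction and 19 turned, and 0 were called. With the letter B as a covariate the turned values were -0.049 (Krt6a), -0.032 (Krt16), -0.48 (Krt6b), -0.003 (Cdk1), -0.015 (Krt72), -0.48 (Krt83), -0.69 (Krt33b) and -0.13 (Mitf). With KO_IMQ_Allo they were -0.017 (Socs3), -0.043 (Jak1), -0.033 (Il1r1), -0.113 (Csf3r), 0.018 (Mzb1) and -0.024 (Mitf). With quantile normalization they were -0.015 (Il20rb) and -0.033 (Jak1). Leaving out KO_IMQ or KO_IMQ_B gave -0.042 and 0.109 for Il20rb, -0.011 and 0.086 for Jak1, and -0.104 and 0.077 for Tyk2. The cause was not tested. The counts of the mast cell (10 lower), adipocyte (10 lower), sebaceous (11 higher), cornified envelope (15 higher), antimicrobial (11 higher), endothelial (7 lower) and fibroblast (8 lower) lists were the same under both normalizations and with the mean of probe sets, alternatives chosen after seeing the data. These alternatives could change little, since array medians differed by at most 0.05 and 1082 of 22180 genes had several probe sets. The equal counts are therefore no sign of stability. No paired analysis was possible because the labels give WT a single array. The limits are the single WT_IMQ array, the unknown meaning of B, and levels of hair follicle, muscle and adipocyte genes that differ between the arrays.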

Other observations

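Several genes at least 2-fold higher on both KO arrays under IMQ stand in no list and were picked out after their values were seen. Uox, which encodes the liver enzyme urate oxidase, was at 8.82 on KO_IMQ and 6.94 on KO_IMQ_B, against 5.58 on WT_IMQ. Without IMQ it was at 4.44 and 5.13 in KO skin and 4.67 in WT skin, so it was high on the arrays labelled KO with IMQ. Slc6a14, an amino acid transporter gene of epithelia, was at 9.90 and 9.04, against 8.04 on WT_IMQ. Klk10, a kallikrein-related peptidase gene of the epidermis, was at 10.03 and 9.75, against 8.66 on WT_IMQ, and Plet1, a surface protein gene of the upper hair follicle, at 9.92 and 9.66, against 8.33.

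Among muscle genes outside the list, Csrp3 and Myoz2, both of slow or cardiac muscle, were higher with Myh2. Csrp3 was at 7.88 and 7.62 in KO skin, against 6.24 on WT_IMQ, and Myoz2 at 6.71 and 5.96, against 4.90. Mylk4, a muscle kinase gene, was lower with Myh4, at 5.22 and 5.22 in KO skin, against 6.34 on WT_IMQ. The KO arrays thus lay above WT_IMQ for Csrp3, Myoz2 and Myh2 and below it for Mylk4 and Myh4.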
